A study of Mus musculus with 15 samples.

Results

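The fatty acid oxidation and PPAR programme is described here as a set of 43 listed genes in nuclear RNA of mouse heart muscle cells. The list was matched by gene symbol to the deposited count table that is limited to genes averaging 10 counts or more. Of the 43 genes, 41 were in that table of 16610 genes, and the same 41 were among the 17455 genes tested. The other two, Cpt1b and Etfb, are described separately because almost no reads were assigned to them.

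Nuclei positive for Pcm1, a centriolar satellite protein found at the nuclei of cardiomyocytes, were sorted from ventricular muscle. Their ribosome-depleted RNA was sequenced with a directional kit. The 15 libraries carry a genotype label (Pgr_KO or Pgr_WT) and a sex label, which gave 4 female and 4 male libraries labelled knockout, and 3 female and 4 male libraries labelled wild type. Pgr encodes the progesterone receptor, and the series compares the 2 genotypes by sex. The knockout allele, the strain, the age and any treatment are not given in the sources used here, and neither is the meaning of the numbers 3 and 6 in the tissue label. No label says whether replicates are separate animals, so p-values measure only the spread between these libraries.

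Depth ranged from 24.4 to 139 M counts per library, with a median of 49.9 M. Pgr reads ran against the genotype labels: Pgr stood at 8.69 to 12.5 CPM (counts scaled to library size) in the female and 6.10 to 7.15 CPM in the male libraries labelled knockout, against at most 0.267 and 0.166 CPM in the female and male libraries labelled wild type. Directions between genotypes are therefore given by label alone, and where a gene is called higher in libraries labelled knockout it was higher where Pgr reads were present. The 10 cardiomyocyte markers, Myh6 and Ttn among them, summed to 43833 CPM or more in every library. Endothelial, fibroblast and mural markers split the libraries into 6 with high and 9 with low levels. In each sex the high libraries were replicates 1 and 2 under the knockout label and replicate 1 under the wild-type label. Replicate 2 of the knockout female, wild-type female and wild-type male labels also held reads of the other sex, at 3.07%, 3.07% and 3.50% of the level in the other sex, against at most 0.254% in the other 12 libraries.

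Heart muscle draws most of its energy from fatty acids. They are freed from lipoproteins, taken up, bound to coenzyme A and carried into mitochondria as carnitine esters, where the beta-oxidation spiral shortens them and passes electrons to the respiratory chain. The nuclear receptors PPARalpha and PPARdelta sense fatty acids and switch on many of these genes together with PGC-1 coactivators and oestrogen-related receptors. In fasting, the same receptors raise Pdk4, a kinase that holds back glucose oxidation.

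Levels of different genes are compared as CPM per kb of gene body, averaged over the 15 libraries, because the deposited counts cover whole gene bodies with introns. Among genes of uptake and activation, Lpl, the lipase that frees fatty acids from lipoproteins, had the highest level with 34.8 CPM per kb. Fabp3, the cytosolic fatty acid binding protein of heart, had 27.3, and the fatty acid translocase Cd36 had 12.4 CPM per kb. The lipoprotein receptor Vldlr, the transporter Slc27a1 and the acyl-CoA synthetase Acsl1 had 9.41, 8.67 and 6.02 CPM per kb. Of the windows of 50 bases along the Fabp3 transcript, 29.2% also occur in another annotated gene, most often the pseudogene Fabp3-ps1, so its level is uncertain.

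The carnitine shuttle was lower per length. Cpt1a, the outer membrane acyltransferase, had 2.23 CPM per kb, and the malonyl-CoA decarboxylase Mlycd, which removes the inhibitor of that step, had 2.05 CPM per kb. The inner membrane acyltransferase Cpt2 had 1.52 and the carnitine-acylcarnitine carrier Slc25a20 had 1.12 CPM per kb. Cpt1b, the muscle form of the acyltransferase, was listed at 0 counts in all 15 libraries, and Etfb, a subunit of the electron transfer flavoprotein, had 2 counts in all. Cpt1b (chromosome 15, 89416405 to 89425863, minus strand, GRCm38) lies 100% inside the gene model Gm44502 on the same strand. Etfb (chromosome 7, 43444083 to 43457800, plus strand) is covered to 99.7% by Gm45233 on the same strand, which held 3304 counts. No level of Cpt1b or Etfb can be read from these counts. No other listed gene was covered by more than 5.01% on its own strand. On the opposite strand, Txnip is covered to 100% by Gm15441, Acadvl to 40.5% by Dvl2, Eci2 to 25.7% by Gm16984 and Ucp3 to 13.8% by Gm10603. Against 141833, 38863, 36727 and 21880 counts for these members over all libraries, the partners held 512, 2757, 60 and 9488 counts. The name of the deposited count tables carries the tag strrev, for reverse-stranded counting, under which such partners are counted apart from the members.

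Within the beta-oxidation spiral, Hadhb led with 11.9 CPM per kb, followed by the medium-chain dehydrogenase Acadm with 9.75, the very-long-chain dehydrogenase Acadvl with 8.53 and Hadha with 7.998 CPM per kb. Hadha and Hadhb encode the subunits of the mitochondrial trifunctional protein. The long-chain dehydrogenase Acadl had 5.63, the thiolase Acaa2 3.60, the hydroxyacyl-CoA dehydrogenase Hadh 3.39, the hydratase Echs1 2.81 and the short-chain dehydrogenase Acads 0.971 CPM per kb. Of the enzymes for unsaturated chains, the isomerases Ech1, Eci1 and Eci2 had 11.98, 3.97 and 0.889 CPM per kb, and the dienoyl-CoA reductase Decr1 had 3.29. Etfa, the other subunit of the flavoprotein, had 6.90 and its oxidoreductase Etfdh 4.74 CPM per kb. Ehhadh, the bifunctional enzyme of peroxisomes, had 0.919 CPM per kb.

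Hadha and Hadhb are shown with their shared start region because they lie head to head. In the deposited annotation Hadha (chromosome 5, 30118304 to 30155162, minus strand) and Hadhb (30155248 to 30184593, plus strand) are separated by 85 bases. The 300 bases around the start of Hadhb (RefSeq promoter table, GRCm38.p6, chr5:30155003-30155302, plus strand) are printed with those 85 bases in capitals.
Hadhb: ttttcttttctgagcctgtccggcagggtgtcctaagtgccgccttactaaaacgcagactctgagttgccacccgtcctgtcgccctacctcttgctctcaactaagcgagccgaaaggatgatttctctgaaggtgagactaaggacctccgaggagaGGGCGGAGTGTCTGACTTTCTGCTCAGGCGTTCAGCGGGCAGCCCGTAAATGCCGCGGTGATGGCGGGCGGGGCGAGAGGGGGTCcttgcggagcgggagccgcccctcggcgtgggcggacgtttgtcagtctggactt
Hadhb stood at 266, 457, 518 and 387 CPM in female libraries labelled knockout, against 243, 552 and 338 CPM in female libraries labelled wild type. It stood at 285, 254, 274 and 284 CPM in male libraries labelled knockout, against 254, 431, 301 and 413 CPM in male libraries labelled wild type. Hadha stood at 259, 333, 399 and 303 CPM in female libraries labelled knockout, against 230.2, 416 and 309 CPM in those labelled wild type, and at 263, 238, 228 and 259 CPM in male libraries labelled knockout, against 243, 339, 225 and 376 CPM in those labelled wild type. Both genes were low in all 4 male libraries labelled knockout and highest in replicate 2 of the wild-type female label, and the groups overlapped between the labels in each sex.

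Among genes of fuel choice, Txnip, whose product limits glucose uptake, had 44.0 CPM per kb, the highest of any listed gene on this scale. That rank depends on scaling by gene body. Without it, Txnip had a mean of 173 CPM from a gene body of 3.93 kb. Esrrg had 2002 CPM from 606 kb. Pdk4 had 7.46, the mitochondrial carrier Ucp3 1.85, and the thioesterases Acot2 and Acot1 had 0.688 and 0.127 CPM per kb. Acot1 and Acot2 are near copies: 18.8% of the windows of 50 bases along Acot1 and 27.7% of those along Acot2 occur in another gene, most often the partner, so the split of reads between them is uncertain. Of the lipid droplet genes, the triglyceride lipase Pnpla2 had 2.94, the droplet coats Plin5 and Plin2 had 2.59 and 1.44, and Angptl4, a secreted inhibitor of Lpl, had 0.748 CPM per kb. Among regulators, the coactivators Ppargc1b and Ppargc1a had 9.52 and 6.84 CPM per kb. The oestrogen-related receptors Esrra and Esrrg had 4.85 and 3.30, and the receptors Ppara and Ppard had 4.37 and 0.716 CPM per kb.

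Most members varied more within groups than the median gene. The standard deviation (SD) of log2(CPM + 0.5) within groups had a median of 0.304 over the 41 members and 0.250 over all 17455 tested genes, and 32 of the 41 members lay above the median of all genes. Pdk4 had an SD of 1.19, larger than that of 96.5% of tested genes. Genes were not matched by level here, and the added 0.5 shrinks the SD of genes with low CPM. Angptl4, Txnip, Ucp3 and Acot1 came next with 0.934, 0.875, 0.740 and 0.664. Echs1, Acsl1 and Esrrg varied least, with 0.159, 0.184 and 0.186.

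**Figure D1:**
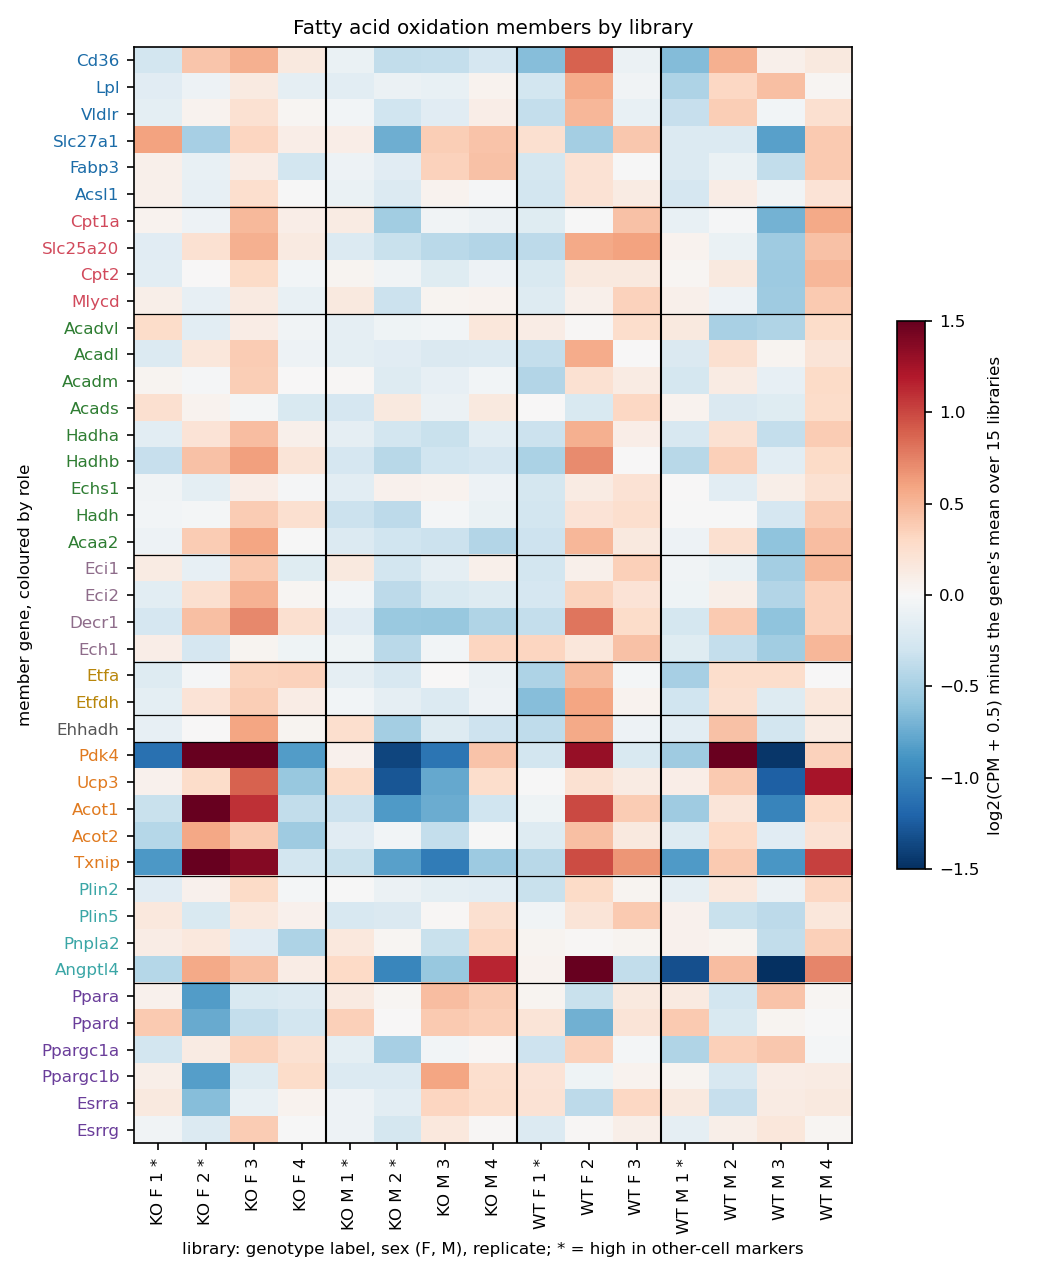
Each cell is the log2(CPM + 0.5) of 1 member gene (rows, grouped by role) in 1 library (columns, grouped by genotype label and sex), minus the mean of that gene over the 15 libraries. The widest swings are in the rows of Pdk4 and Angptl4, which span 3.22 and 3.14 on the log2 scale, and replicate 3 of the wild-type male label is the lowest library for 16 of the 41 members.

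Libraries of the same group differed widely. The median deviation of the members from their own means was highest in replicate 3 of the knockout female label, at 0.37 on the log2 scale, and in replicate 4 of the wild-type male label, at 0.29. It was lowest in replicate 2 of the knockout male label, at -0.28, in replicate 3 of the wild-type male label, at -0.27, and in replicate 1 of the wild-type female label, at -0.27. Each of the 4 groups thus held libraries on either side of 0, except that all 4 male libraries labelled knockout lay below 0. In replicate 2 of the knockout female label the fuel-choice genes stood at 1.55 and the regulators at -0.70, while the beta-oxidation genes stood at 0.05.

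Pdk4 stood at 33.4, 249, 210.3 and 40.8 CPM in female libraries labelled knockout, against 60.4, 182 and 62.2 CPM in female libraries labelled wild type. In males it stood at 76.6, 27.8, 34.0 and 98.3 CPM under the knockout label, against 50.5, 206, 26.3 and 93.4 CPM under the wild-type label. The groups overlapped. No male library labelled knockout exceeded 98.3 CPM, while each of the other groups held a library at 182 CPM or more. Txnip stood at 77.6, 428, 368 and 117 CPM in female libraries labelled knockout, against 107, 281 and 224 CPM in those labelled wild type. In males it stood at 112, 80.4, 68.2 and 97.3 CPM under the knockout label, against 78.4, 187, 77.3 and 288 CPM under the wild-type label. The females labelled knockout were thus spread from 77.6 to 428 CPM, while the males with that label stayed at or below 112 CPM. Ucp3 ranged from 8.93 to 53.4 CPM over all libraries, Acot2 from 2.63 to 6.26 CPM and Angptl4 from 1.27 to 15.1 CPM.

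The 3 libraries holding other-sex reads were among the 4 highest libraries for 6 members: Cd36, Hadhb, Decr1, Etfdh, Pdk4 and Acot2. They were among the 4 lowest for Ppara and Esrra. The share of all tested genes with either order was not counted, so these counts cannot be read as particular to the members. Their median for Pdk4 was 206 CPM, against 55.4 CPM in the other 12 libraries, and for Ppara it was 229.8 CPM, against 309.9 CPM in the other 12. The comparisons of labels, sexes and marker levels below were also run without these 3 libraries.

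The genes that respond to fasting were set against Pdk4 across libraries, on log2(CPM + 0.5), within the low-marker and the high-marker libraries separately. Each set holds libraries of all 4 groups, whose means were not removed, and the 16 relations were adjusted together. Correlations of Pdk4 with all other tested genes are not given here, so no background share stands beside these relations. The members as a whole also shifted between libraries, as given above, and the part of that shift was not tested. In the 9 low-marker libraries, Acot2 followed Pdk4 with Pearson's r = 0.863 (permutation p = 0.00425, adjusted p = 0.0352) and Spearman's rho = 0.833 (permutation p = 0.00849). Without the 2 libraries farthest from the median of Pdk4, r was 0.858. Acot1 had r = 0.851 (permutation p = 0.00523, adjusted p = 0.0352) and rho = 0.800 (permutation p = 0.0135), and r = 0.685 without those 2 libraries. Ucp3 had r = 0.800 (permutation p = 0.00924, adjusted p = 0.0352) and rho = 0.817 (permutation p = 0.0107), and Angptl4 had r = 0.781 (permutation p = 0.0110, adjusted p = 0.0352) and rho = 0.717 (permutation p = 0.0367). Txnip had r = 0.775 (permutation p = 0.0209, adjusted p = 0.0479) and rho = 0.717 (permutation p = 0.0365). Without the same 2 libraries these 3 values of r were 0.554, 0.517 and 0.543.

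The other relations of Pdk4 in low-marker libraries missed an adjusted p of 0.05. Plin2 had r = 0.733 (permutation p = 0.0352, adjusted p = 0.0703), Cpt1a r = 0.467 (permutation p = 0.205, adjusted p = 0.274) and Mlycd r = 0.423 (permutation p = 0.265, adjusted p = 0.303), with rho = 0.567, 0.400 and 0.433 (permutation p = 0.119, 0.289 and 0.249). Without the 2 farthest libraries the value for Cpt1a was -0.115 and that for Mlycd was -0.0961, so these 2 relations rest on those libraries. In the 6 high-marker libraries, Txnip had r = 0.949 (exact permutation p = 0.00972, adjusted p = 0.0352) and rho = 0.829 (exact permutation p = 0.0583), and r = 0.866 without the 2 farthest libraries. Acot1 had r = 0.934 (exact permutation p = 0.0208, adjusted p = 0.0479) and rho = 0.886 (exact permutation p = 0.0333), but r = 0.243 without them, so this relation also rests on those libraries. The other 6 relations in high-marker libraries had r between 0.0739 and 0.829, with adjusted p of 0.122 or more. No Spearman correlation had an adjusted p below 0.0721. The permutations treat libraries as exchangeable, but same-numbered libraries of different groups, several of which stand in each set, deviated together over all tested genes, with r from 0.511 to 0.857 between females and males labelled knockout and from 0.306 to 0.885 between those labelled wild type. These r were taken from deviations around group means that span both sets, so the marker split is part of them. Replicate 2 is high under the knockout and low under the wild-type label in each sex. Its r between the labels was -0.382 in females and 0.139 in males. Sharing inside a single set was not measured. The p-values do not allow for any such sharing, and the part of the numbering in these relations was not tested.

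Without the wild-type female and male replicates 2, which held reads of the other sex, 7 low-marker libraries remained, and the 8 relations were adjusted together. Ucp3 then had r = 0.891 (exact permutation p = 0.00774, adjusted p = 0.0333) and Acot1 r = 0.889 (exact permutation p = 0.00833, adjusted p = 0.0333). Acot2, Txnip and Angptl4 had r = 0.812, 0.797 and 0.762 (exact permutation p = 0.0284, 0.0399 and 0.0425), each with an adjusted p of 0.0679, so their calls were lost with fewer libraries. All 8 relations were above 0. The same could not be done in high-marker libraries, since 5 would have remained.

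Promoters of 2 members are shown because the receptors of this programme bind the half-site AGGTCA, which stands in capitals on either strand. The RefSeq promoter table (GRCm38.p6, 250 bases before to 50 bases after the start) held 37 of the 43 members. Acadm is printed as a textbook target of PPARalpha, and Ucp3 as an example of a promoter window with 2 copies. For Plin5 the half-site was also found at 2 positions.
Acadm (chr3:153944594-153944893, minus strand): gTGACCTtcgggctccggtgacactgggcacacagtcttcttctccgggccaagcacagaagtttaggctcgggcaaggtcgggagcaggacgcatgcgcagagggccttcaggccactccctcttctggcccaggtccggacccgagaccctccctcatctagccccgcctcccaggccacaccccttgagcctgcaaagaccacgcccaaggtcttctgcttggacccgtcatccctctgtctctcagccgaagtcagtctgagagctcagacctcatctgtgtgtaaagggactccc
Ucp3 (chr7:100472741-100473040, plus strand): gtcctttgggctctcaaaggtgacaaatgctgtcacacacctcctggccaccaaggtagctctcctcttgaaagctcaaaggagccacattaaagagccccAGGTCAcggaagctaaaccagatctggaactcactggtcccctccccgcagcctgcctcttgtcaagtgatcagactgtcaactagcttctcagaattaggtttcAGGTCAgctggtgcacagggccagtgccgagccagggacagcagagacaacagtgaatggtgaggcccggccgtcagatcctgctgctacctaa
The half-site, searched on both strands, was in the window of 8 of the 37 member genes (21.6%), namely Acadm, Acadvl, Cd36, Cpt1a, Echs1, Plin2, Plin5 and Ucp3. It was in that of 18.1% of all 27025 genes in the table. The direct repeat AGGTCANAGGTCA, which holds the half-site at both ends, and the extended site TCAAGGTCA, which ends in it, were each in the window of 0 of the 37 member genes, and in those of 0.0480% and 0.466% of all genes. A match is a description of letters, and these windows are short.

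The first comparison asked whether the members differed between the genotype labels in females. None did at an adjusted p below 0.05 (edgeR quasi-likelihood test, Benjamini-Hochberg adjustment over 17455 genes), where 0% of all tested genes were called and 303 had an unadjusted p below 0.05. Of the 41 members, 0 had an unadjusted p below 0.05, and DESeq2 and limma-voom also called 0. Log2 fold changes were above 0 for 21 of 41 members, with a median of 0.02, against a median of 0.03 and 55.4% above 0 over all tested genes. The count above 0 was 3 without replicate 3 of the knockout female label, 5 without replicate 1 of the wild-type female label, and 30 without the 3 libraries holding other-sex reads, where the median was 0.17, so the balance of directions depended on single libraries.

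Ech1 had the smallest p in females. It stood at 88.1, 69.0, 84.9 and 78.7 CPM in libraries labelled knockout, against 103, 92.9 and 112 CPM in libraries labelled wild type. Every library labelled knockout was below every library labelled wild type, as for 1.01% of all tested genes, and Ech1 was the 1 member of 41 with this order. The log2 fold change was -0.36 ± 0.22 (SE, adjusted p = 1, edgeR). Ppara, the PPARalpha gene, came next with 302, 162, 247 and 251 CPM in libraries labelled knockout, against 298, 229.8 and 321 CPM in those labelled wild type. These groups overlapped, and the log2 fold change was -0.24 ± 0.21 (adjusted p = 1, edgeR).

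In males, 0 of 41 members were called between the labels and 0 had an unadjusted p below 0.05, and DESeq2 and limma-voom also called 0. Of all tested genes, 0.0115% were called and 247 had an unadjusted p below 0.05. Log2 fold changes were below 0 for 29 of 41 members, with a median of -0.15, against 0.02 over all genes. The median was -0.07 both without the 3 libraries holding other-sex reads and with a term for high or low other-cell markers, and -0.08 without replicate 2 or replicate 4 of the wild-type label. All 5 fuel-choice genes had values below 0, with a median of -0.67, and 7 of 9 beta-oxidation genes, with a median of -0.25. Decr1 stood at 78.2, 59.9, 59.4 and 64.3 CPM under the knockout label, against 73.4, 116, 57.8 and 112 CPM under the wild-type label. Only replicates 2 and 4 of the wild-type label lay above the range of the knockout label. The log2 fold change of Decr1 was -0.46 ± 0.27 (adjusted p = 0.999, edgeR). Acaa2 stood at 81.9, 76.8, 75.3 and 69.5 CPM under the knockout label, against 89.4, 111, 61.6 and 130.4 CPM under the wild-type label, with a log2 fold change of -0.37 ± 0.23 (adjusted p = 0.999, edgeR). Its groups overlapped through replicate 3 of the wild-type label alone.

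**Figure D2:**
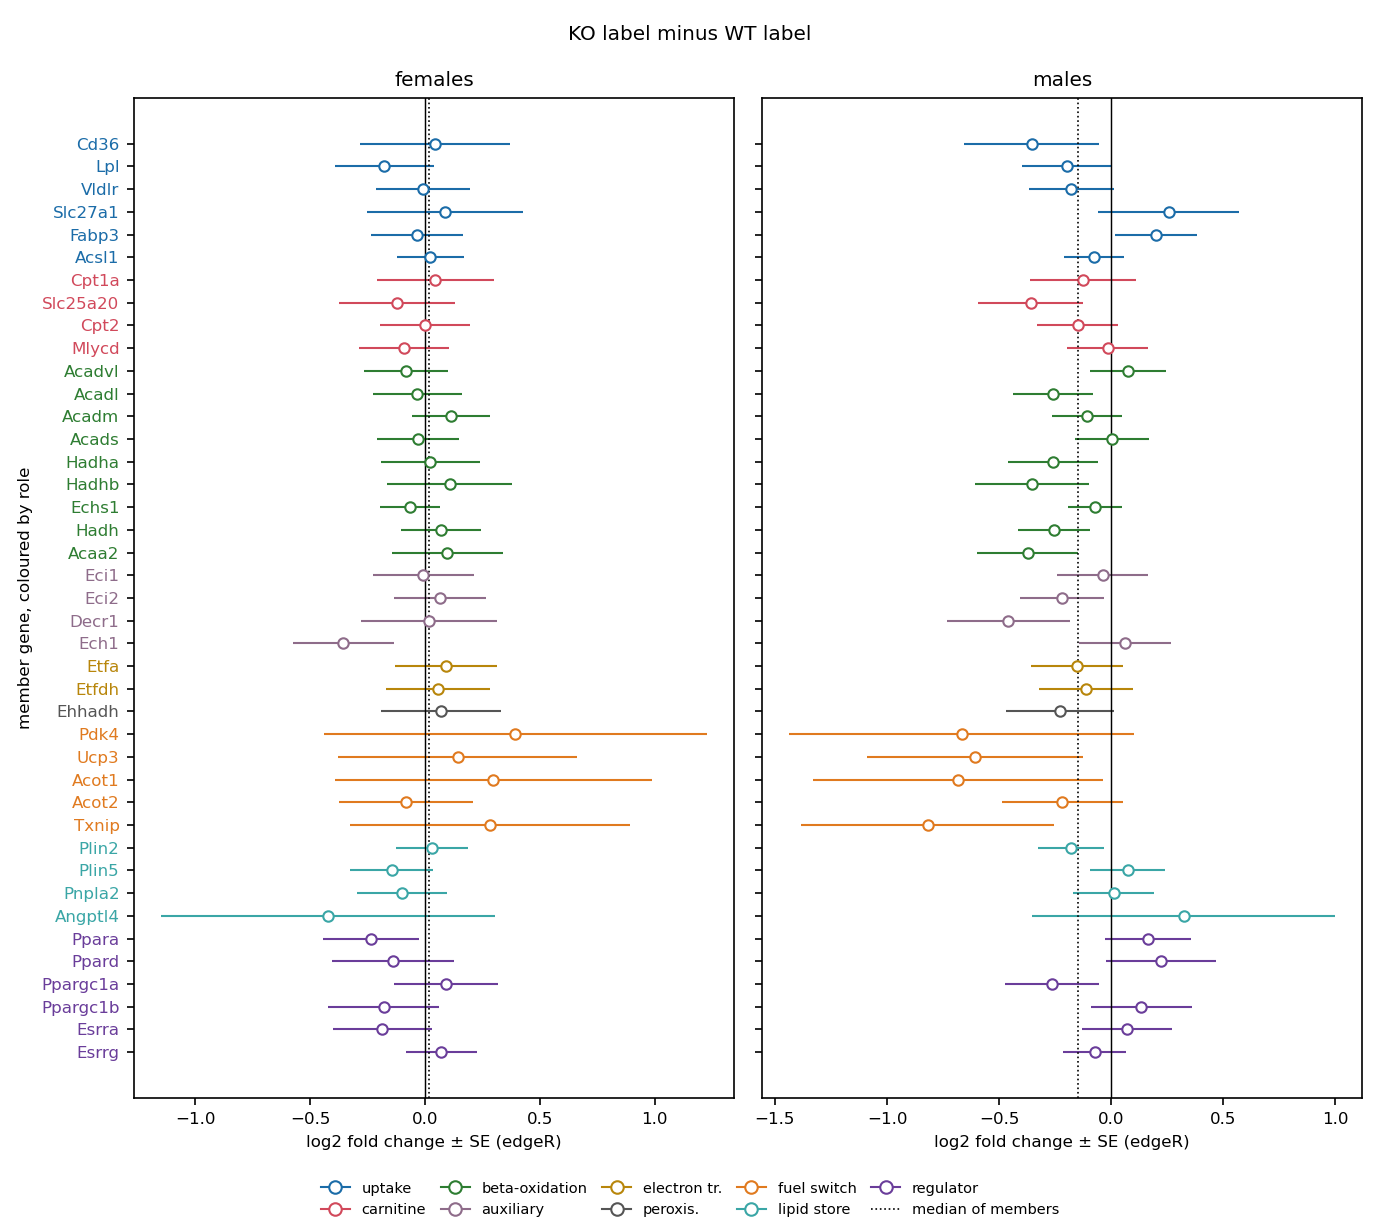
Points are log2 fold changes, libraries labelled knockout minus those labelled wild type, with their standard errors (bars), for the 41 tested members in females (left) and males (right). Open points did not pass an adjusted p of 0.05, and the dotted lines mark the member medians of 0.02 in females and -0.15 in males.

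Endothelial and fibroblast markers moved with the label without passing the test. All 14 endothelial markers had log2 fold changes above 0 in both sexes, with medians of 0.54 in females and 0.57 in males, as had all 12 fibroblast markers, with medians of 0.55 and 0.71. The lists of further cells were mixed. Of 9 tested mural markers, 7 were above 0 in females and 9 in males. Of 10 leukocyte markers, 8 were above 0 in females but 4 in males. Of 4 tested adipocyte markers, 2 were above 0 in each sex. Of the 10 cardiomyocyte markers, 8 lay below 0 in females and 9 above 0 in males. Libraries high in other-cell markers made up 2 of 4 in each sex under the knockout label, against 1 of 3 in females and 1 of 4 in males under the wild-type label.

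The difference between the label effects of females and males was called for 0 of 41 members and for 0% of all tested genes by edgeR. Of all tested genes, 435 had an unadjusted p below 0.05, but 0 of the 41 members did, and DESeq2 and limma-voom called 0 members. The median was 0.17 over the members and 0.02 over all genes. Single libraries set this median: it was -0.0021, with 20 members above 0 and 21 below, without replicate 1 of the wild-type female label, 0.037 without replicate 3 of the knockout female label, 0.049 without replicate 4 of the wild-type male label, and 0.315 without replicate 2 of the wild-type female label. Acaa2 had a difference of 0.47 ± 0.33 and Ppara of -0.40 ± 0.29 on the log2 scale (adjusted p = 0.9999 for both, edgeR). Averaged over the sexes, the label effect was also called for 0 of 41 members, with 0 at an unadjusted p below 0.05 and 0 by DESeq2 and limma-voom, where 0.0172% of all tested genes were called. It was below 0 for 37 of 41 members, with a median of -0.07 on the log2 scale, against a median of 0.0089 and 53.3% above 0 over all tested genes. This count depended on the setting: 24 of 41 members were below 0 without the 3 libraries holding other-sex reads, with a median of -0.0083, and 27 with a term for high or low other-cell markers, with a median of -0.02. It was 26 without replicate 2 of the wild-type female label, with a median of -0.04, and 28 without replicate 4 of the wild-type male label, with a median of -0.03.

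Slc25a20 had the smallest p of the averaged effect, with -0.24 ± 0.17 (adjusted p = 0.9999, edgeR). It stood at 21.7, 28.6, 35.4 and 26.9 CPM in female libraries labelled knockout, against 18.4, 36.3 and 37.3 CPM in those labelled wild type, and at 21.2, 19.3, 18.4 and 17.9 CPM in male libraries labelled knockout, against 25.4, 22.8, 16.7 and 33.4 CPM in those labelled wild type. Lpl came next with -0.19 ± 0.15 (adjusted p = 0.9999, edgeR). It stood at 818, 876, 1014 and 842 CPM in female libraries labelled knockout, against 761, 1360.0 and 888 CPM in those labelled wild type, and at 827, 865, 852 and 956 CPM in male libraries labelled knockout, against 669, 1141, 1264 and 939 CPM in those labelled wild type. The wild-type label held both the lowest and the highest value of Lpl in each sex. Without the 3 libraries holding other-sex reads the averaged effect for Lpl was -0.0083 on the log2 scale, and with the marker term it was -0.09.

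**Figure D3:**
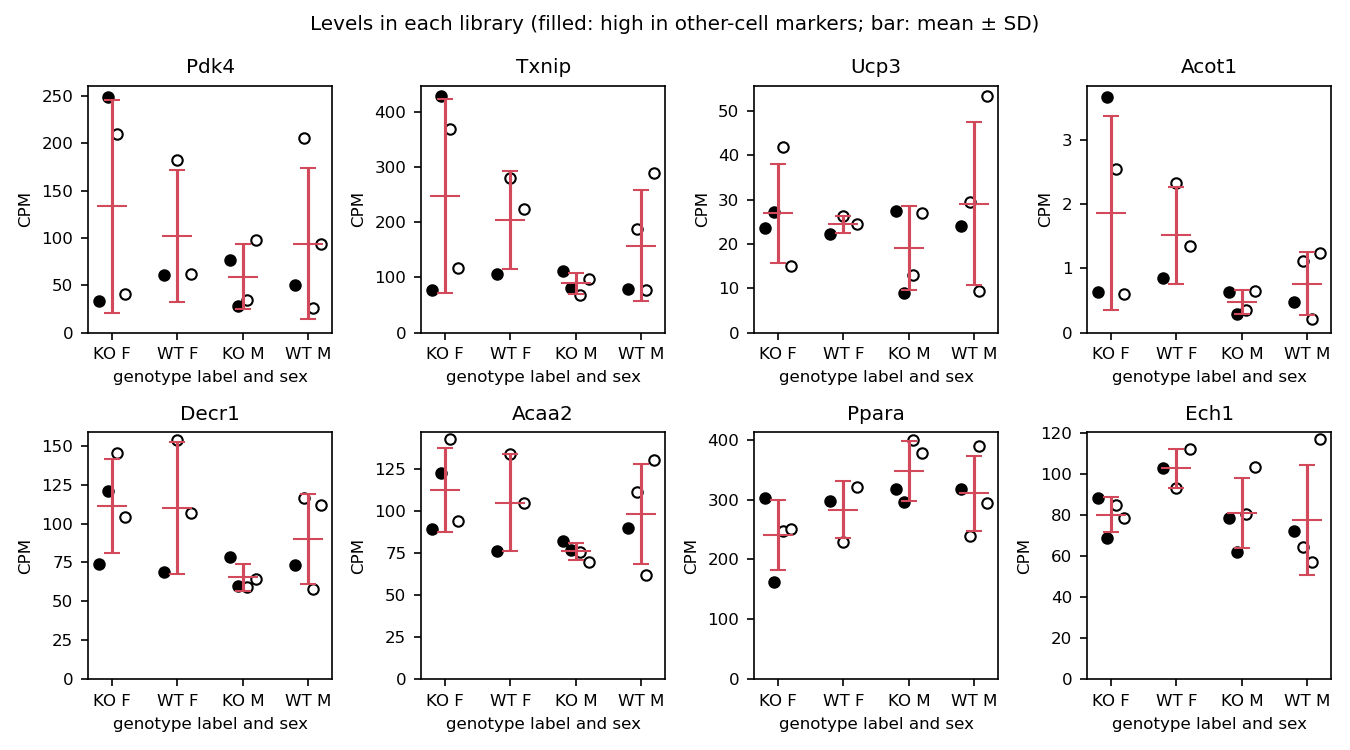
Each panel gives the CPM of 1 gene in every library, by genotype label and sex, with filled points for libraries high in other-cell markers and bars for mean ± SD. Pdk4 and Txnip reach 249 and 428 CPM in females labelled knockout, whose 4 libraries lie far apart.

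Females and males were compared within each label. Under the knockout label, 33 of 41 members had log2 fold changes above 0, female minus male, with a median of 0.15, against 52.0% of all tested genes and a median of 0.01. None of the members passed an adjusted p of 0.05 with edgeR, DESeq2 or limma-voom, where edgeR called 0.0229% of all tested genes. At an unadjusted p below 0.05 there were 8 members of 41, against 6.37% of all tested genes. The 8 were Acot1, Decr1, Ppara, Txnip, Acaa2, Slc25a20, Hadhb and Hadh, each with an adjusted p of 0.757 (edgeR). Of these, Ppara was lower in females, and the other 7 were higher. The count of 8 rested on single libraries: it was 2 without female replicate 3, 3 without female replicate 2, 4 without male replicate 2 and likewise without male replicate 4, 5 without male replicate 3, and 4 without the 3 libraries holding other-sex reads. The count was 11 with the marker term and likewise without female replicate 1. It was 12 with only the 2 groups compared, 10 with DESeq2, 9 in the low-marker libraries alone and 7 with limma-voom. Of the endothelial markers 12 of 14 and of the fibroblast markers 11 of 12 were also above 0, with medians of 0.15 and 0.39 on the log2 scale, while 8 of 10 cardiomyocyte markers were below 0.

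By role, all 5 fuel-choice genes had values above 0 with a median of 1.17 on the log2 scale, as had 8 of 9 beta-oxidation genes, with a median of 0.27, and all 4 genes of the carnitine shuttle, with a median of 0.19. Of the 6 regulators, 4 had values below 0, with a median of -0.24. Over the 26 alternatives, between 28 and 35 members were above 0, and the median lay between 0.08 and 0.26. It was lowest without replicate 3 of the knockout female label and highest in the low-marker libraries alone. Under the wild-type label, 29 of 41 members had values above 0, with a median of 0.06, which lay between -0.07 and 0.22 when single libraries were left out. Without the 3 libraries holding other-sex reads, 19 of 41 were above 0, with a median of -0.04, and without female replicate 2 alone, 15 were, with a median of -0.07.

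Acot1 had the smallest p under the knockout label, with 0.627, 3.66, 2.54 and 0.593 CPM in females, against 0.635, 0.287, 0.346 and 0.649 CPM in males. Its log2 fold change of 1.96 ± 0.66 rested on female replicates 2 and 3, since the other two lay within the range of males, and was 1.39 without the 3 libraries holding other-sex reads. Decr1 stood at 73.8, 121, 146 and 104 CPM in females, against 78.2, 59.9, 59.4 and 64.3 CPM in males, with a log2 fold change of 0.76 ± 0.27. Of the females, replicate 1 fell inside the male range. Ppara stood at 302, 162, 247 and 251 CPM in females, against 318, 295, 400.2 and 378 CPM in males, with a log2 fold change of -0.53 ± 0.19. Only female replicate 1 lay inside the male range. Txnip had a log2 fold change of 1.47 ± 0.57 and Hadhb of 0.57 ± 0.25.

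Acaa2 and Slc25a20 were the 2 of 41 members whose female libraries labelled knockout all lay above the male ones, as for 1.26% of all tested genes. Acaa2 stood at 89.2, 123, 142 and 94.1 CPM in females, against 81.9, 76.8, 75.3 and 69.5 CPM in males, with a log2 fold change of 0.56 ± 0.23. Slc25a20 stood at 21.7, 28.6, 35.4 and 26.9 CPM in females, against 21.2, 19.3, 18.4 and 17.9 CPM in males, with 0.55 ± 0.24. The lowest female and the highest male value of Slc25a20 lay close together. Of the 50-base windows along Slc25a20, 9.96% occur in another annotated gene.

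**Figure D4:**
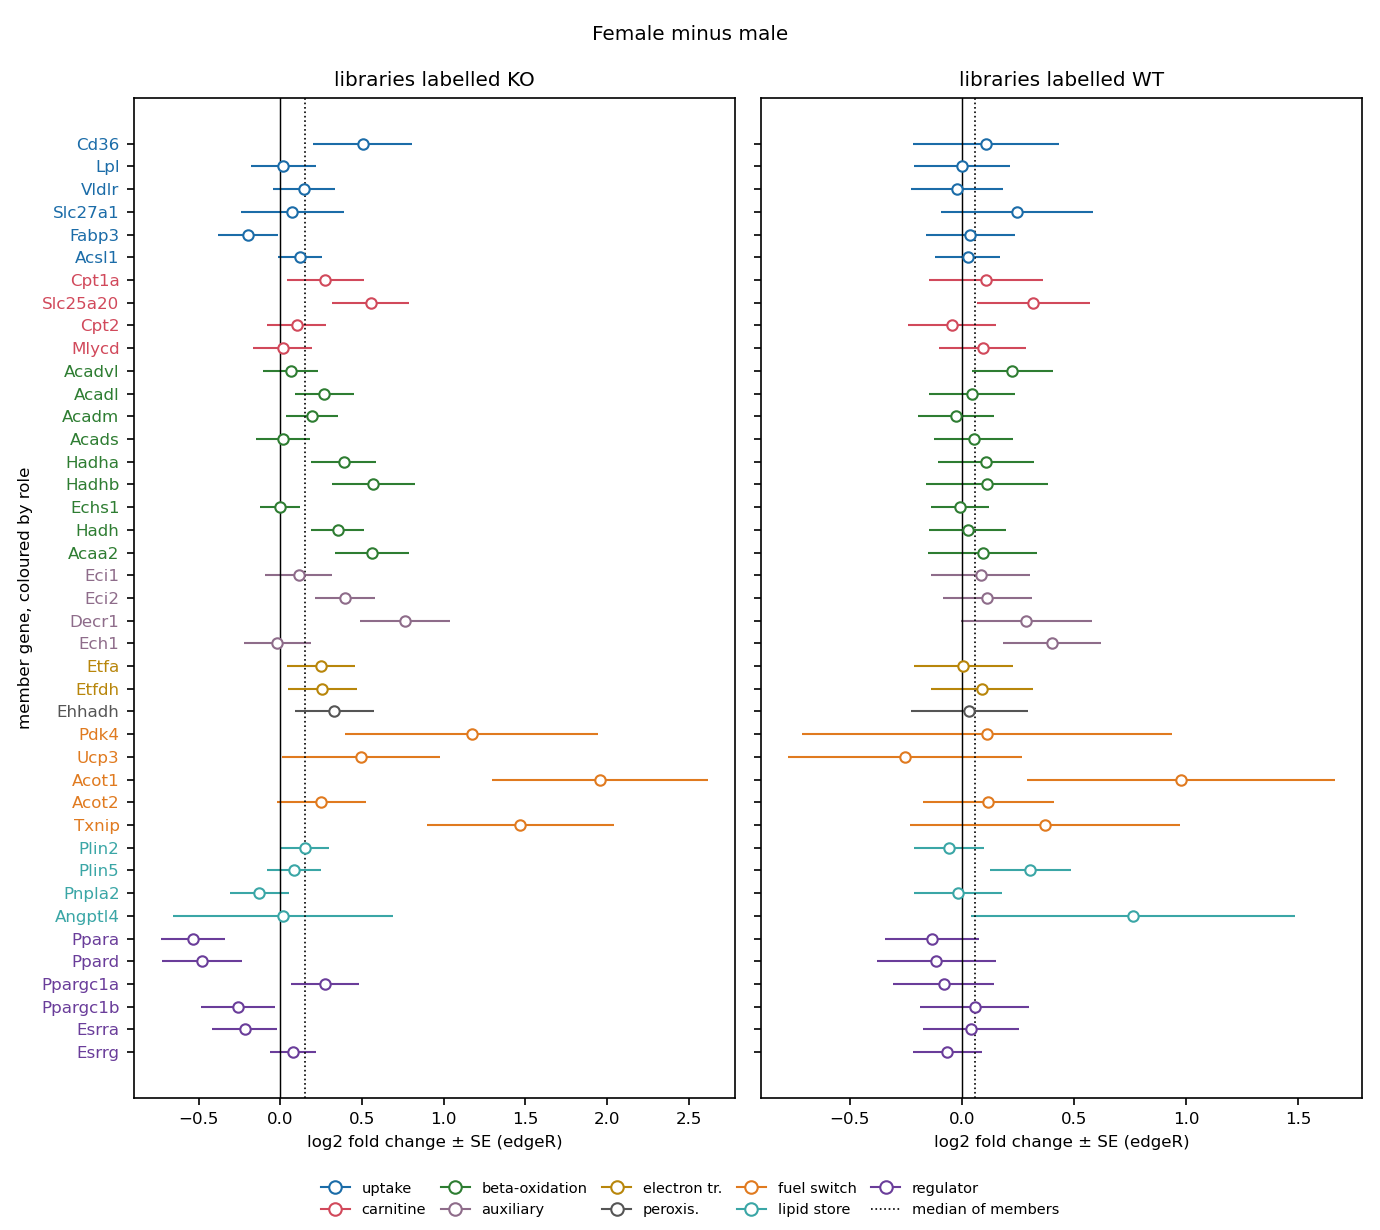
Points are log2 fold changes, female minus male, with their standard errors (bars), for the 41 tested members in libraries labelled knockout (left) and wild type (right), coloured by role. No member passed an adjusted p of 0.05, and the fuel-choice genes Acot1 and Txnip lie farthest to the right under the knockout label, at 1.96 and 1.47.

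Under the wild-type label, 0 of 41 members were called between the sexes by edgeR, DESeq2 or limma-voom, 0 had an unadjusted p below 0.05, and 0% of all tested genes were called, with 364 at an unadjusted p below 0.05. Ech1 had the smallest p, with 103, 92.9 and 112 CPM in females, against 72.4, 64.3, 57.2 and 117 CPM in males. The male replicate 4 exceeded all females, and the log2 fold change was 0.40 ± 0.22 (adjusted p = 0.9999, edgeR). Plin5, which coats lipid droplets and tethers them to mitochondria, stood at 14.8, 17.6 and 20.3 CPM in females, against 16.0, 12.02, 11.6 and 17.2 CPM in males, with a log2 fold change of 0.31 ± 0.18 (adjusted p = 0.9999, edgeR). Its groups overlapped.

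The members were also set against the content of other cells. The 6 libraries with high and the 9 with low endothelial, fibroblast and mural markers were compared in a model that keeps a mean for each of the 4 groups. The split was made from 35 marker genes, none of them a member, and it is not a group of the study. Between high and low libraries 28.8% of all tested genes were called, and 8.04% were called lower. Of the 41 members, 5 (Etfa, Ppargc1a, Esrrg, Acsl1 and Hadh) were called lower and 0 higher, where 20.8% of all tested genes were called higher (edgeR, adjusted p below 0.05). The log2 fold change was below 0 for 37 of 41 members, with a median of -0.24, against a median of -0.02 and 47.0% of values above 0 over all tested genes. High libraries also held more mitochondrially encoded reads, with a median of 0.685% of counts (0.376% to 1.12%). In low libraries the median was 0.410% (0.254% to 0.619%). The part of this difference in the member values was not tested. Fewer cells of a type and less RNA per cell cannot be told apart in bulk nuclei.

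Etfa fell by 0.46 ± 0.11 on the log2 scale (adjusted p = 0.00364, edgeR). In high libraries it stood at 277 CPM at the lowest, 336 at the median and 387 at the highest, against 367, 469 and 543 CPM in low libraries, so the ranges overlapped little. Ppargc1a fell by 0.44 ± 0.11 (adjusted p = 0.00668, edgeR), with 538, 620.0 and 826 CPM in high libraries, against 737, 892 and 1008 CPM in low libraries. Esrrg fell by 0.27 ± 0.08 (adjusted p = 0.0163, edgeR). Its high libraries lay between 1655 and 1921 CPM, all below the low libraries, which lay between 1978 and 2590.2 CPM. Acsl1 fell by 0.26 ± 0.08 (adjusted p = 0.0247, edgeR) and Hadh by 0.30 ± 0.09 (adjusted p = 0.0252, edgeR), and the ranges of high and low libraries overlapped for both.

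The calls depended on the setting. Etfa was called under all 23 alternatives and Ppargc1a under 22 of them, while Esrrg, Hadh and Acsl1 were called under 21, 19 and 18. The split nearly followed the replicate number: replicate 1 was high and replicates 3 and 4 were low under both labels. A block for that number therefore leaves the split to replicate 2, high under the knockout and low under the wild-type label. Replicate 2 includes the 3 libraries holding other-sex reads. With the replicate number as a block, the called members were Vldlr, Etfa and Ehhadh, where 12.6% of all tested genes were called. The adjusted p was 0.0886 for Ppargc1a, 0.121 for Esrrg, 0.171 for Acsl1 and 0.470 for Hadh (edgeR). Without the 3 libraries holding other-sex reads, they were Hadhb, Etfa and Ppargc1a, and without replicate 1 of the wild-type female label, Etfa, Ppargc1a and Esrrg.

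By role, all 6 uptake genes, all 4 tested genes of the carnitine shuttle, all 4 for unsaturated chains, Etfa and Etfdh, Ehhadh and all 5 fuel-choice genes had values below 0. So had 7 of 9 beta-oxidation genes, 5 of 6 regulators and 3 of 4 lipid droplet genes. The medians ran from -0.38 for Etfa with Etfdh and -0.29 for uptake to -0.16 for the carnitine shuttle. Of the 4 members above 0, Ppard had the highest value, 0.20, and none passed the test.

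**Figure D5:**
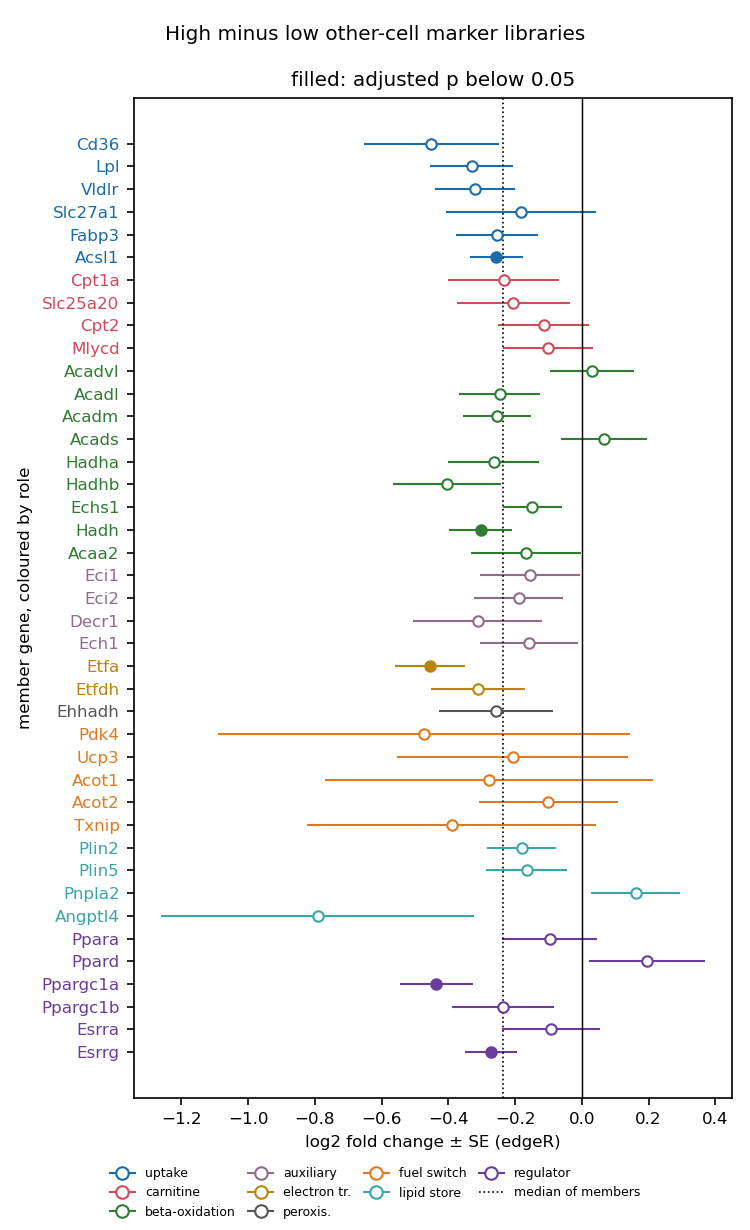
Points are log2 fold changes, libraries high minus libraries low in endothelial, fibroblast and mural markers, with standard errors (bars), for the 41 tested members by role. The 5 filled points, Etfa, Ppargc1a, Esrrg, Acsl1 and Hadh, passed an adjusted p of 0.05 and lie left of 0, and the dotted line marks the member median of -0.24.

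Markers moved with this split as follows. The sum of 14 endothelial markers was 355 to 618 CPM in high libraries, against 25.2 to 87.6 CPM in low libraries, and that of 12 fibroblast markers 461 to 1256 CPM, against 45.9 to 176 CPM. That of 10 mural markers overlapped, with 151 to 271 CPM in high and 109 to 226 CPM in low libraries. Acta2, at 49.8 to 177 CPM over the libraries, was a large part of this sum. Of 9 tested mural genes, 7 were called higher, while Acta2 and Cspg4 had log2 values of -0.30 and -0.02. That of 10 leukocyte markers was 71.1 to 174 CPM in high libraries, against 12.9 to 56.6 CPM in low libraries. That of 6 adipocyte markers was 1.03 to 2.56 CPM, against 0.0768 to 0.194 CPM. The endothelial, fibroblast and mural genes made the split, so their difference as a set is fixed by it. Of the lists not used for it, all 10 leukocyte and all 4 tested adipocyte genes were called higher, and of the 10 cardiomyocyte markers 0 were called higher and 1 lower. The sum of cardiomyocyte markers was 43833 to 69888 CPM in high and 56977 to 73753 CPM in low libraries.

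The other genes of fatty acid handling, 91 from lists of peroxisomal, mitochondrial, lipid handling and regulator genes, gave 90 tested genes. Between labels or sexes 0 of the 90 were called by edgeR, with 8 at an unadjusted p below 0.05 between females and males labelled knockout and at most 4 in the other 5 comparisons. For each list the gene with the smallest p is given, in the order peroxisomal, mitochondrial, lipid handling and regulator. Between labels in females these were Abcd2 with a log2 fold change of 0.61 ± 0.20, Acaca with 0.30 ± 0.18, Acsl4 with 0.21 ± 0.14 and Pparg with 0.36 ± 0.16. In males they were Abcd2 with -0.35 ± 0.18, Acadsb with -0.22 ± 0.13, Dgat2 with -0.65 ± 0.22 and Pdk1 with -0.25 ± 0.15.

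For the difference between these effects they were Abcd2 with 0.96 ± 0.27, Acaca with 0.45 ± 0.25, G0s2 with -0.96 ± 0.51 and Pdk1 with 0.59 ± 0.22, and for their average Scp2 with 0.15 ± 0.09, Oxct1 with -0.26 ± 0.14, Dgat2 with -0.41 ± 0.16 and Pparg with 0.25 ± 0.11. Abcd2, a peroxisomal transporter of very-long-chain acyl-CoA, led its list in 4 of the 6 comparisons. Between females and males labelled knockout they were Abcd2 with 0.78 ± 0.18 (adjusted p = 0.478, edgeR), Acaca with 0.54 ± 0.17, Acsl3 with 0.42 ± 0.13 and Pdk2 with -0.42 ± 0.18. Between females and males labelled wild type they were Pecr with -0.36 ± 0.15, Bdh1 with -1.01 ± 0.40, G0s2 with 0.74 ± 0.38 and Pdk1 with -0.30 ± 0.16. All adjusted p-values of these genes were 0.478 or more.

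Between high and low libraries, 11 of the 90 genes were called higher and 20 lower, which is set against the 20.8% higher and 8.04% lower among all tested genes. The acyl-CoA synthetase Acsl5 rose by 3.02 ± 0.22 on the log2 scale (adjusted p = 9.02e-08, edgeR), the fatty acid binding protein Fabp4 by 2.84 ± 0.24 (adjusted p = 2.51e-07, edgeR) and the mitochondrial carrier Ucp2 by 2.54 ± 0.21 (adjusted p = 2.35e-07, edgeR). Gpihbp1, which holds Lpl on capillary endothelium, rose by 2.71 ± 0.29 (adjusted p = 2.51e-06, edgeR), a gene named after its values were seen. Of the 22 tested peroxisomal genes, 6 were called lower and 0 higher, with Nudt7 falling by 0.36 ± 0.08 (adjusted p = 0.00372, edgeR). Of the 25 regulators, 8 were called lower, Prkaa2, Sirt3 and Tfam among them, and 3 higher. Of the synthetases, Acsl5 was thus higher in the high libraries and Acsl1 lower. Of the binding proteins, Fabp4 was higher there, while Fabp3 had a log2 value of -0.25 ± 0.12 without passing the test. These pairs were chosen after their values were seen. The synthetases Acsl3 and Acsl4 overlapped between the sets. Acsl3 stood at 8.46 to 14.5 CPM in high and 9.03 to 13.4 CPM in low libraries. Acsl4 stood at 24.5 to 39.5 CPM in high and 23.8 to 35.0 CPM in low libraries.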

How the data were processed

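Per the submitters' processing notes, reads were aligned with STAR 2.5.3a and counted with featureCounts 1.5.0 on GRCm38. Both deposited tables give raw counts for each gene and library, and the deposited gene length equals end minus start plus 1 in 100% of genes. The smaller table is limited to genes averaging 10 counts or more. All tests used the larger table of 55536 genes. Genes were kept by filterByExpr, scaled by TMM and fitted with edgeR 4.0.16 in R 4.3.3 (glmQLFit with robust dispersion, 1 mean per group, 11 residual degrees of freedom). Genes were called where the p adjusted over 17455 genes (Benjamini-Hochberg) was below 0.05, with SE from the estimate and its F statistic. DESeq2 1.42.0, limma-voom (limma 3.58.1), other scalings and filters, a marker term, a replicate block and leaving out libraries were alternatives. Scripts were tested on simulated data. The simulation had no marker split and a smaller dispersion than the fit with group means alone, so it does not measure power here.

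The members, lists and tests were chosen with earlier results of these data known. Values per library are given for the 2 members with the smallest unadjusted p in each comparison, and levels for the highest member per role. Other pathway genes are given as counts with the gene of smallest p per list. Further members named were chosen after their values were seen.

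CPM used TMM library sizes, and a floor of 3 counts equals 0.0219 to 0.117 CPM, which covers counting error only. No pair of replicates agreed within counting noise. Correlations used 100000 permutations, or all of them for up to 7 libraries. Same-numbered libraries deviated together between the groups labelled knockout (r 0.511 to 0.857) and between the groups labelled wild type (0.306 to 0.885). Between males r was 0.139 to 0.734. Between females it was 0.749 and 0.608 for replicates 1 and 3, and -0.382 for replicate 2. The marker split is part of all these r. The promoters were read from RefSeq. Lpl, Cpt1b, Acaa2, Decr1, Angptl4 and Ppargc1b have no promoter shown.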

Additional observations from a re-analysis of the deposited data

Results flagged for a closer look

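Of 123 sets of 4 libraries, 1 for each tested member in each of 3 groups, 3 held a library far from the other 3, and chance flags about 5% of such sets. Acadm, the medium-chain acyl-CoA dehydrogenase, stood at 279 CPM in replicate 3 of the knockout female label, against 212 to 221 CPM in the other 3 libraries of that group. Ppard, the gene of PPARdelta, stood at 47.9 CPM in replicate 2 of the knockout male label, against 61.0 to 62.9 CPM in the others. Esrra, the gene of an oestrogen-related receptor, stood at 40.5 CPM in replicate 2 of the wild-type male label, which also held reads of the other sex, against 56.3 to 57.5 CPM in the others.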

How the results depend on the processing

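Between labels and sexes, 0 members were called under every alternative run. The 5 members called lower in high-marker libraries became 9 with DESeq2, 8 with its size factors in edgeR, 13 with no filter on low counts, 3 with the replicate block, 3 without the 3 libraries holding other-sex reads, and 3 to 8 without 1 library (3 without replicate 1 of the wild-type females, 8 without replicate 2 of the knockout females and likewise without replicate 3 of the wild-type males), and the cause was not tested. Over all tested genes, the share called in either direction also moved with the setting. It was 28.8% in the main fit, 35.8% with DESeq2, 31.9% with its size factors and 17.6% with no filter. With the replicate block it was 12.6%, and without the 3 libraries holding other-sex reads 25.4%. The median of the members between high-marker and low-marker libraries stayed between -0.31 and -0.17. The replicate block changed no other call. The medians of the label effect lay between -0.12 and 0.17 in females and between -0.23 and -0.07 in males. Without the 2 libraries farthest from the median of Pdk4, its correlation with Cpt1a was -0.115 and with Mlycd -0.0961 in low-marker libraries, and with Mlycd -0.102 in high-marker libraries. Leaving out libraries holding other-sex reads from the Pdk4 relations was chosen after seeing the data. A term for the marker split lowered the common dispersion to 0.0434, against 0.163 without it. Acot1, with at most 3.66 CPM, is the member most limited by depth.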
